A study of Mus musculus with 6 samples.

Results

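The replication-dependent histone genes encode the core histones H2A, H2B, H3 and H4 and the linker histone H1 that package newly copied DNA. They were taken as every gene of the deposited count table whose symbol begins with Hist1h, Hist2h, Hist3h or Hist4h, which gave 68 of 24062 genes: 6 of H1, 18 of H2A, 19 of H2B, 12 of H3 and 13 of H4. By cluster, 54 belong to Hist1 on chromosome 13, 10 to Hist2 on chromosome 3, 3 to Hist3 on chromosome 11 and 1 to Hist4 on chromosome 6. Their levels were compared between mouse embryonic fibroblasts that had received a lentivirus for overexpression of p27, an inhibitor of cyclin-dependent kinases whose gene is Cdkn1b (p27 OE, 3 libraries), and EV control fibroblasts (3 libraries), where EV is an abbreviation that the labels do not spell out. Both groups were C57BL/6 fibroblasts taken at day 4, and the p27 OE cells are labelled non-senescent. Every control label ends with the remark dataset 10 in brackets, which no p27 OE label has and which is not explained. Whatever this remark stands for coincides with the groups, and its part in the results was not tested. The promoter that drives p27 is not given in the labels, nor is whether libraries of 1 group came from separate cultures, so the p-values measure the spread between these libraries.

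Most histone genes of this kind are transcribed mainly in S phase, under cyclin E and CDK2 acting through the coactivator NPAT, and p27 inhibits that kinase complex. Their short, intronless mRNAs end in a conserved stem-loop bound by SLBP in place of a poly(A) tail, and they are degraded when DNA synthesis stops. Some members also make polyadenylated transcripts that read past the stem-loop, and these have been described in differentiated or non-dividing cells. The libraries were made with a kit that is normally used on poly(A)-selected RNA, and the labels record no selection step, so counts of tailless histone mRNA and of polyadenylated forms cannot be told apart by gene. In bulk RNA, a different share of cells in S phase and a different amount of RNA per cell cannot be told apart either.

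The targeted gene Cdkn1b stood at 419, 978 and 460 CPM (counts scaled to library size) in p27 OE libraries 1, 2 and 3, against 52.2, 49.9 and 51.2 CPM in EV control libraries 1, 2 and 3. All 10 fibroblast markers were present, with Col1a1 between 22700 and 26700 CPM in the 6 libraries, and 2 of the 10 fell in the paired fit described below, Pdgfra by 0.48 ± 0.06 and Lum by 0.23 ± 0.06 on the log2 scale (edgeR adjusted p = 0.000575 and 0.043). The Lum call was lost without the libraries numbered 1 or 3 (edgeR paired adjusted p = 0.1 and 0.313), and that of Pdgfra held without those of any 1 number. The 5 epithelial markers summed to 9.39 to 9.65 CPM in p27 OE libraries and 10.6 to 12 CPM in EV control libraries, nearly all Krt18 and Krt8, with Epcam at 0.2 CPM or below. The 4 leukocyte and macrophage markers found summed to 35.9 to 64 CPM in p27 OE libraries and 40.3 to 50.3 CPM in EV control libraries, mostly Lyz2, with Ptprc at 0.593, 1.1 and 0.610 CPM in p27 OE libraries, against 0.333, 0.396 and 0.360 CPM in EV control libraries (edgeR paired adjusted p = 0.107). The 4 endothelial markers summed to 2.82 to 3.58 CPM in p27 OE libraries and 2.03 to 3.54 CPM in EV control libraries, with Pecam1 at 0.157 CPM or below, and the 4 erythroid markers to 0.477 CPM or less, with Hbb-bs and Hba-a1 at 0. No marker of these 4 lists was called. The 4 skeletal muscle markers summed to 130, 202 and 192 CPM in p27 OE libraries, against 83.9, 115 and 124 CPM in EV control libraries, nearly all of it Des, which rose, with Myf5 at 0. The 4 neural crest, neuronal and glial markers summed to 153, 212 and 220 CPM in p27 OE libraries, against 120, 120 and 137 CPM in EV control libraries, with Tubb3 and Nes as the 2 of 4 that rose. The part of these lists in the histone results was not tested. Total counts ran from 38533998 to 44518389 in p27 OE libraries and from 34920728 to 52098220 in EV control libraries, so 3 counts, used as the floor, corresponded to 0.0556 to 0.0848 CPM. A floor of this kind covers counting error only.

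Taken as shares of the table, the 68 genes held 0.00881% of all counts. The H2B gene Hist1h2bc and the H1 gene Hist1h1c held 79% of the members' counts, and with the H2A gene Hist3h2a, the third at 5 CPM or more, the share was 86.9%. The filter on low counts left 17 members among the 14090 genes tested, while 51 members, 10 of them at 0 counts in all 6 libraries, had too few. Of the 17, 7 had all 3 libraries past the filter's cutoff of 0.236 CPM in p27 OE only and 0 in EV control only, and for Hist1h2ab and Hist1h3b no EV control library passed it. Counts over the 17 are therefore not counts over the cluster genes as a whole, and members that entered through their p27 OE libraries had to stand higher there.

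In edgeR's quasi-likelihood test without pairing, the main test, 0 of 14090 genes passed an adjusted p of 0.05, which is 0% in either direction. At an unadjusted p under 0.05 that test gave 451 genes higher in p27 OE (3.2% of those tested) and 566 lower (4.02%), and 8 of the 17 histone genes were among the higher and 0 among the lower. The smallest adjusted p of a member was 0.642, for Hist1h2bc and Hist1h4h. Libraries of the same number deviated together (correlation 0.772, 0.416 and 0.535 for numbers 1, 2 and 3), so the replicate number was also used as a block. Libraries of numbers 2 and 3 also correlated across numbers, at 0.408 and 0.391, so the pairing of these is not shown. The paired edgeR fit called 535 genes higher (3.8%) and 512 lower (3.63%), with upper-quartile scaling 483 higher and 736 lower, and 6 of the 17 histone genes rose and 0 fell. The 6 are Hist1h1c of H1, Hist1h2ab of H2A, Hist1h2bc and Hist1h2be of H2B, Hist1h3b of H3 and Hist1h4h of H4, the same 6 under each of 3 scalings of the paired fit, and "rose" or "fell" below refers to that fit. DESeq2 without pairing called 51 genes higher (0.362%) and 31 lower (0.22%), with 4 members higher, namely Hist1h2bc, Hist1h1c, Hist1h4h and Hist1h3b, and 0 lower. Paired DESeq2 called 3.36% of genes higher and 2.37% lower, with 3 members higher and 0 lower.

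Over the 17 tested members the median paired log2 fold change was 0.71, beside 0 over all tested genes, and 15 of the 17 changes were positive, beside 49.6% of all tested genes. All 3 p27 OE libraries stood above all 3 EV control libraries for 8 of the 17, beside 6.61% of tested genes, and below them for 0, beside 8.28%. The 8 are the 6 that rose with Hist1h3d and Hist1h2bg. Of the 17, 7 had all 3 libraries past the filter's cutoff in p27 OE only, so the filter favoured members that stand higher there. Hist1h2ab, Hist1h3b, Hist1h2be, Hist1h3d and Hist1h2bg are among those 7, so the shares over all genes are not a like comparison. Without the filter, the paired median over 58 members was 0.57, beside 0 over all genes, and 42 changes were positive, beside 50.2% of genes.

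**Figure D1:**
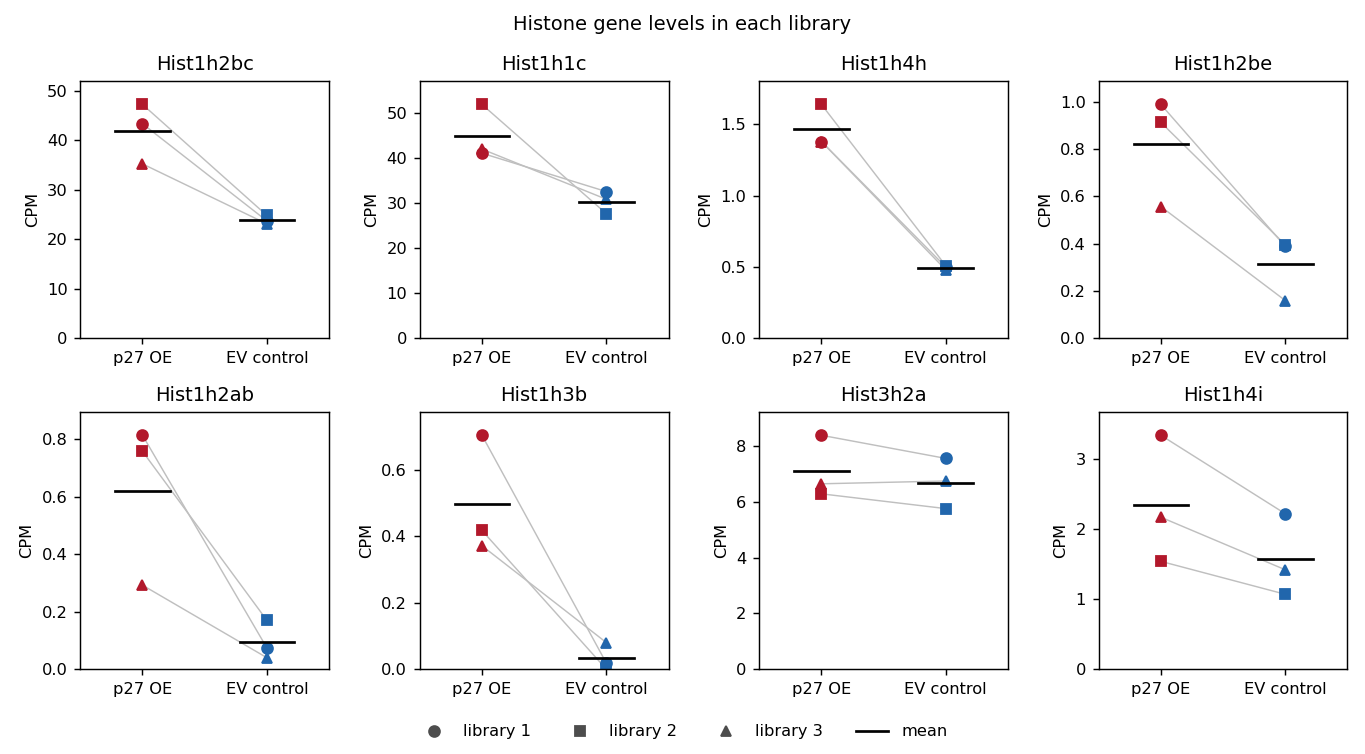
Level of the 6 histone genes that rose and of Hist3h2a and Hist1h4i in each library, in CPM on scaled library sizes; p27 OE libraries stand left of EV control libraries, symbols mark the library number, lines join libraries of the same number, and black bars are means. Hist1h2bc lies between 35.2 and 47.2 CPM in p27 OE and between 23.1 and 24.8 CPM in EV control, and Hist1h3b is at 0 in EV control library 2.

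In the annotated transcripts, the stem-loop motif was searched on the transcript strand as GGNNNT, a loop of TNTN and then ANNNCC, with the first 6 bases pairing with the last 6. It was present in 46 of the 68 members, and in 69 of all 21877 protein-coding genes of the annotation (0.32%), 46 of which are these members. The form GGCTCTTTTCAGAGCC occurred in 26 members and in no H4 gene, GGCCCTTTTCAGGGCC in 7 members, all H4, and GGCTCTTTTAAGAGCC in 6. The stem-loops of 5 genes that rose and of Hist1h4a, an H4 gene that did not pass, are shown to compare the element in mRNAs of each class (GENCODE annotation of GRCm38, 5′ to 3′, stem-loop in capitals with the flanking bases in lower case).
Hist1h1c, chr13:23739507-23739532 (+): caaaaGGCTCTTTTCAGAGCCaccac
Hist1h2ab, chr13:23751567-23751592 (+): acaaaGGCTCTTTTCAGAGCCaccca
Hist1h2be, chr13:23585526-23585551 (−): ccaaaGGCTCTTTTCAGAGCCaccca
Hist1h3b, chr13:23752815-23752840 (+): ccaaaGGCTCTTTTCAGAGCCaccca
Hist1h4h, chr13:23531453-23531478 (+): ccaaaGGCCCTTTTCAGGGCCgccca
Hist1h4a, chr13:23760795-23760820 (−): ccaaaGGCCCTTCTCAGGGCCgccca
The H1, H2A, H2B and H3 genes shown carry the same 16 letters, and the H4 genes carry a stem of other letters. Hist1h2bc, the sixth gene that rose, has no stem-loop in its annotated transcript, which is spliced over 2 exons at chr13:23684199-23692908.

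Among the linker histones, Hist1h1c rose in p27 OE libraries. Hist1h1c, which encodes H1.2 and has the highest total count of the members, had 41.0, 51.8 and 41.9 CPM in p27 OE libraries 1, 2 and 3, against 32.5, 27.6 and 30.8 CPM in EV control libraries 1, 2 and 3. The groups did not overlap, and p27 OE library 2 was the highest and EV control library 2 the lowest. The log2 fold change was 0.56 ± 0.10 (SE; edgeR paired fit, adjusted p = 0.0167), and the adjusted p was 0.00683, 0.0015 and 0.0387 without the libraries numbered 1, 2 and 3. The gene is at chr13:23738808-23740367 on the plus strand, and its annotated mRNA runs 840 bases past the stem-loop.

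The other tested H1 genes did not pass. Hist1h1d, which encodes H1.3, had 1.23, 0.678 and 0.610 CPM in p27 OE libraries, against 0.759, 0.480 and 0.440 CPM in EV control libraries, higher in each number but with overlapping groups (log2 fold change 0.57 ± 0.33, edgeR paired adjusted p = 0.317). Hist1h1e, which encodes H1.4, was higher in p27 OE for numbers 1 and 2 and lower for number 3 (log2 fold change 0.71 ± 0.45). Hist1h1b, which encodes H1.5, had 5, 11 and 13 counts in p27 OE libraries, against 7, 6 and 18 counts in EV control libraries (log2 fold change 0.14 ± 0.52). Its direction turned with the library left out. Hist1h1a had 4, 4 and 4 counts in p27 OE libraries, against 2, 4 and 8 in EV control libraries, and the testis H1 gene Hist1h1t had 2 counts in p27 OE libraries in all, against 2 in EV control libraries. The H1 class summed to 43.0, 53.5 and 43.3 CPM in p27 OE libraries, against 33.8, 28.5 and 32.1 CPM in EV control libraries, a ratio of means of 1.48, and to 2.02, 1.72 and 1.43 CPM against 1.31, 0.933 and 1.36 CPM without Hist1h1c.

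Of 18 H2A genes, 2 had enough counts to be tested, and 1 of them rose. Hist1h2ab, which encodes a canonical H2A, had 0.813, 0.757 and 0.292 CPM in p27 OE libraries, against 0.0741, 0.170 and 0.0400 CPM in EV control libraries. These are 37, 29 and 11 counts against 4, 6 and 2, and the groups did not overlap. It rose by 2.76 ± 0.51 on the log2 scale (SE; edgeR paired adjusted p = 0.00712), a size that rests on few counts in EV control. Hist1h2ab lies at chr13:23751126-23751598, and 29.2% of its exon overlaps Gm44484 on the opposite strand, which this unstranded kit cannot separate.

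Hist3h2a, an H2A gene of the small Hist3 cluster, had 8.39, 6.29 and 6.65 CPM in p27 OE libraries, against 7.56, 5.76 and 6.75 CPM in EV control libraries. The groups overlapped, and the ratio within numbers 1, 2 and 3 was 1.11, 1.09 and 0.986 (log2 fold change 0.09 ± 0.12, edgeR paired adjusted p = 0.716). Of its exon, 33.0% overlaps Trim17 or Gm44313. Hist3h2a holds most H2A counts. The class sum of 10.7, 7.59 and 7.61 CPM in p27 OE libraries overlapped the 8.65, 6.44 and 7.13 CPM of EV control libraries. Without Hist3h2a the class summed to 2.31, 1.30 and 0.954 CPM in p27 OE libraries, against 1.09, 0.678 and 0.380 CPM in EV control libraries. That remainder was 2.11, 1.92 and 2.51 times as high in p27 OE within numbers 1, 2 and 3, although the groups overlapped.

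The H2B genes gave the change with the smallest p of the members. Hist1h2bc, which encodes an H2B, had 1973, 1810 and 1328 counts in p27 OE libraries, against 1278, 878 and 1152 counts in EV control libraries. In CPM this was 43.3, 47.2 and 35.2 in p27 OE, against 23.7, 24.8 and 23.1 in EV control. The 3 EV control values lay within 2 CPM of each other and below every p27 OE value. It rose by 0.80 ± 0.08 on the log2 scale (SE; edgeR paired adjusted p = 6.52e-05), and it passed also without the libraries of any 1 number. Per kilobase of exon its mean level was 36.3 CPM in p27 OE and 20.6 CPM in EV control, above Hist1h1c at 28.8 CPM per kilobase in p27 OE and 19.4 in EV control.

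Hist1h2be, another H2B gene, had 0.989, 0.913 and 0.557 CPM in p27 OE libraries, against 0.389, 0.396 and 0.160 CPM in EV control libraries. It rose by 1.4 ± 0.37 on the log2 scale (SE; edgeR paired adjusted p = 0.0359), but the adjusted p was 0.0739 without the libraries numbered 1 and 0.189 without those numbered 3. Its annotated exons span chr13:23583670-23621124 on the minus strand, and 11.2% of their length overlaps Hist1h1e or Gm11398. Hist1h2bg had 0.286, 0.417 and 0.451 CPM in p27 OE libraries, all above the 0.241, 0.170 and 0.140 CPM of EV control libraries, and did not pass (log2 fold change 1.02 ± 0.49, edgeR paired adjusted p = 0.228). Hist1h2bj was higher in p27 OE in each number with overlapping groups (log2 fold change 0.65 ± 0.47).

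Hist2h2be, an H2B gene of the Hist2 cluster, had 1.89, 0.548 and 0.954 CPM in p27 OE libraries, against 1.87, 1.53 and 0.981 CPM in EV control libraries. It was about level in numbers 1 and 3 and lower in p27 OE in number 2, where the ratio was 0.359 (log2 fold change −0.42 ± 0.31, edgeR paired adjusted p = 0.452). The H2B class summed to 48.4, 50.2 and 38.9 CPM in p27 OE libraries, against 27.1, 27.7 and 25.5 CPM in EV control libraries, a ratio of means of 1.71. Without Hist1h2bc the sums of 5.05, 3 and 3.66 CPM in p27 OE libraries overlapped the 3.41, 2.94 and 2.40 CPM in EV control libraries, a ratio of means of 1.34.

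The H3 class was low throughout, with 10 of its 12 genes counted at all. Hist1h3b, which encodes a replication-dependent H3, had 32, 16 and 14 counts in p27 OE libraries, against 1, 0 and 4 counts in EV control libraries. Every p27 OE library was above every EV control library, and 2 EV control libraries were under the floor of 3 counts. The fitted log2 fold change of 3.73 ± 0.71 (SE; edgeR paired adjusted p = 0.00803) depends on so few EV control counts that it gives a direction rather than a size. Hist1h3b is at chr13:23752267-23752886, less than 1 kb downstream of Hist1h2ab.

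Hist1h3d had 0.549, 0.522 and 0.663 CPM in p27 OE libraries, against 0.241, 0.367 and 0.220 CPM in EV control libraries, with no overlap between the groups and without passing (log2 fold change 1.09 ± 0.41, edgeR paired adjusted p = 0.125). Hist1h3c had 11, 12 and 9 counts in p27 OE libraries, against 19, 8 and 16 counts in EV control libraries, and is 1 of the 2 tested members with a negative change (log2 fold change −0.20 ± 0.47). The H3 class summed to 1.98, 2.09 and 1.80 CPM in p27 OE libraries, against 1.19, 0.933 and 0.981 CPM in EV control libraries, a ratio of means of 1.89 with no overlap. The Hist2 copies Hist2h3c1 and Hist2h3c2 were at 0 in all libraries.

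Of the H4 genes, which encode the same protein from many copies, 3 of 13 were tested. Hist1h4h had 1.38, 1.64 and 1.38 CPM in p27 OE libraries, against 0.5, 0.509 and 0.480 CPM in EV control libraries. The 63, 63 and 52 counts in p27 OE stood well apart from the 27, 18 and 24 counts in EV control, and the ratio within numbers was 2.77, 3.23 and 2.87. It rose by 1.55 ± 0.29 on the log2 scale (SE; edgeR paired adjusted p = 0.00794), with an adjusted p of 0.0102, 0.00747 and 0.039 without numbers 1, 2 and 3. Hist1h4h, at chr13:23531050-23531519, ends 46 bases after its stem-loop in the annotation.

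Hist1h4i had 3.34, 1.54 and 2.17 CPM in p27 OE libraries, against 2.22, 1.07 and 1.42 CPM in EV control libraries. Its ratio within numbers 1, 2 and 3 was 1.5, 1.43 and 1.53, yet the groups overlapped and it did not pass (log2 fold change 0.58 ± 0.21, edgeR paired adjusted p = 0.111). Hist1h4a had 0.220, 0.470 and 0.742 CPM in p27 OE libraries, against 0.111, 0.113 and 0.320 CPM in EV control libraries (log2 fold change 1.35 ± 0.47, edgeR paired adjusted p = 0.0944). The H4 class summed to 5.87, 4.23 and 5.49 CPM in p27 OE libraries, against 3.63, 2.40 and 2.76 CPM in EV control libraries, a ratio of means of 1.77 with no overlap.

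**Figure D2:**
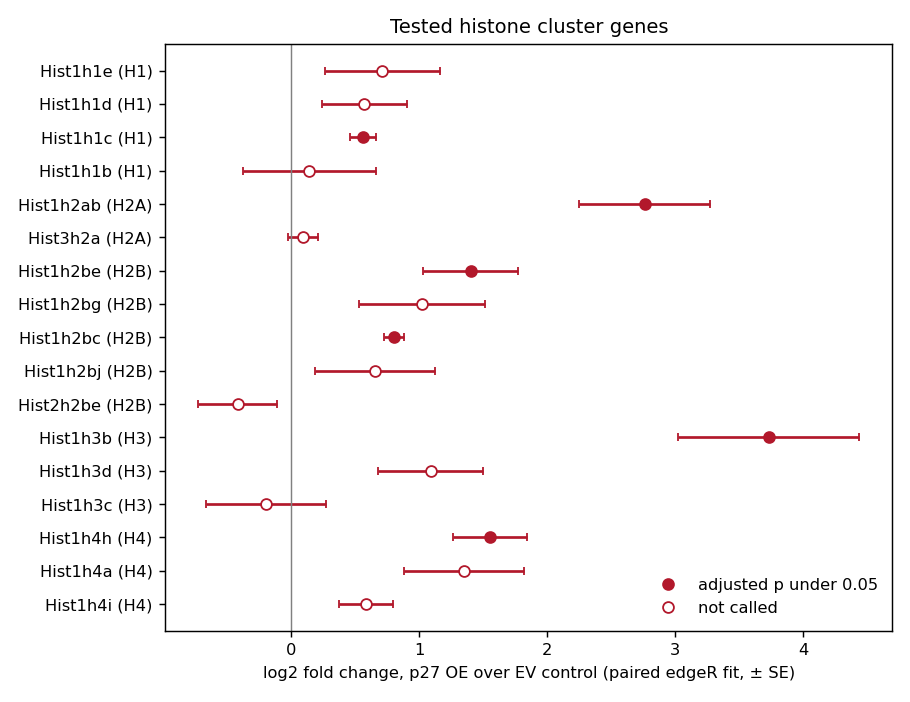
Paired log2 fold change (p27 OE over EV control) of the 17 tested histone genes by class, with bars of 1 standard error; filled points passed in that fit at an adjusted p of 0.05. The 6 genes that passed lie between 0.56 for Hist1h1c and 3.73 for Hist1h3b, and Hist1h3c and Hist2h2be lie below 0.

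Summed over all 68 genes, the level was 110, 118 and 97.1 CPM in p27 OE libraries, against 74.4, 66 and 68.5 CPM in EV control libraries, a ratio of means of 1.55. Without Hist1h2bc and Hist1h1c it was 25.6, 18.6 and 20.0 CPM in p27 OE libraries, against 18.2, 13.6 and 14.6 CPM in EV control libraries, a ratio of 1.38 with no overlap. With Hist3h2a left out too, the ratio was 1.62. An exact permutation test of such a sum over 3 libraries against 3 could not reach a p of 0.05, so none is given, and no sum was tested against another.

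By cluster, the 54 Hist1 genes summed to 99.2, 110 and 89.0 CPM in p27 OE libraries, against 64.6, 58.2 and 60.2 CPM in EV control libraries, a ratio of means of 1.63. The 10 Hist2 genes summed to 2.2, 0.887 and 1.43 CPM in p27 OE libraries, against 2.19, 1.95 and 1.16 CPM in EV control libraries, with a ratio of 0.853 and overlapping groups. The log2 of this ratio of means was −0.23. It turned to 0.04 without p27 OE library 2 and 0.12 without both libraries numbered 2. The 3 Hist3 genes, nearly all Hist3h2a, summed to 8.55, 6.34 and 6.68 CPM in p27 OE libraries. In EV control libraries they summed to 7.59, 5.82 and 7.11 CPM, with a ratio of means of 1.05 and overlapping groups. The log2 of that ratio, 0.07, turned to −0.07 without p27 OE library 1 and −0.03 without EV control library 2. Hist4h4 was counted at 0 in p27 OE libraries and 2 in EV control libraries.

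Within Hist1, gaps of over 100 kb part the genes into 4 blocks on chromosome 13. The third block, chr13:23531050-23764406, holds 29 genes, 12 of the 17 tested and all 6 that rose. The whole block summed to 93.9, 107 and 85.3 CPM in p27 OE libraries, against 60.8, 56.1 and 57.4 CPM in EV control libraries. Its ratio of means was 1.64. Without Hist1h2bc and Hist1h1c it was 9.58, 8.45 and 8.22 CPM in p27 OE libraries, against 4.61, 3.79 and 3.52 CPM in EV control libraries. The ratio of means was then 2.2, and at least 2.08 within each number. The first block, chr13:21715763-21837530, summed to 1.47, 0.913 and 1.17 CPM over 18 genes in p27 OE libraries, against 0.982, 0.678 and 1.12 CPM in EV control libraries, and the groups overlapped. The second block, chr13:22035164-22043676, summed to 3.82, 2.03 and 2.49 CPM over 5 genes in p27 OE libraries, against 2.78, 1.41 and 1.72 CPM in EV control libraries, and was 1.38, 1.44 and 1.45 times as high in p27 OE within numbers 1, 2 and 3. The fourth block holds Hist1h2aa and Hist1h2ba, known from testis, both at 0. The difference between blocks was not tested.

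The annotated 3′ end divided the members into 23 whose transcript ends within 100 bases after the stem-loop, 23 that run 100 bases or more past it and 22 without a stem-loop in the annotated transcript, of which 18 are short models. Genes that end near the stem-loop summed to 5.14, 4.38 and 4.32 CPM in p27 OE libraries, against 2.06, 1.5 and 1.7 CPM in EV control libraries, a ratio of means of 2.63. Without Hist1h4h, Hist1h2ab and Hist1h3b, which hold most of the difference, the ratio was 1.80, with 2.24, 1.57 and 2.28 CPM in p27 OE libraries, against 1.46, 0.819 and 1.1 CPM in EV control libraries. Genes that run on summed to 57.9, 64.4 and 55.2 CPM in p27 OE libraries, against 45.5, 37.2 and 41.6 CPM in EV control libraries, a ratio of 1.43, or 1.61 without Hist1h1c and Hist3h2a. Genes without an annotated stem-loop, mainly Hist1h2bc, summed to 46.9, 48.8 and 37.5 CPM in p27 OE libraries, against 26.8, 27.3 and 25.2 CPM in EV control libraries, a ratio of 1.68. All 3 groups were higher in every p27 OE library than in any EV control library, and whether their ratios differ was not tested. The 3 members of at least 5 CPM lie outside the group that ends near the stem-loop.

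**Figure D3:**
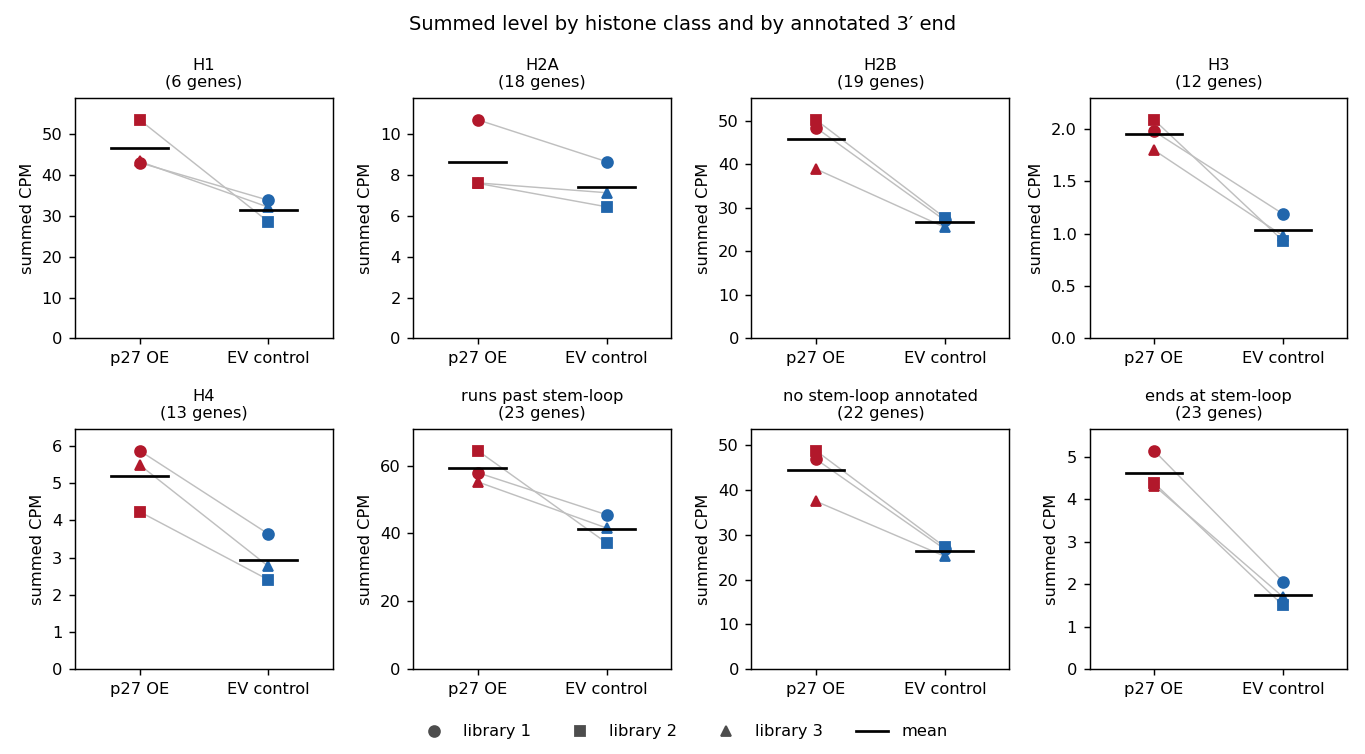
Summed CPM of the members of each histone class and of each kind of annotated 3′ end, by library, with p27 OE left of EV control, symbols for library numbers and a bar at the mean of 3 libraries. H2A is the class whose groups overlap, and genes ending near the stem-loop have a mean of 4.62 CPM in p27 OE, against 1.75 CPM in EV control.

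**Figure D4:**
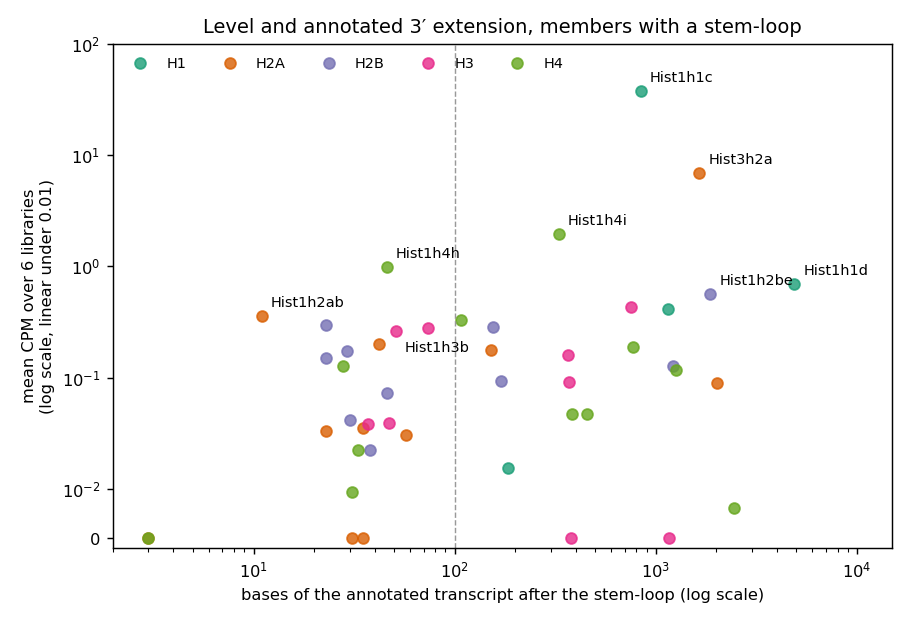
Mean level over the 6 libraries (CPM, log axis, linear under 0.01) of the 46 members with an annotated stem-loop, against the bases that the annotated transcript holds after it (log axis), coloured by class; the dashed line is at 100 bases. Hist1h1c at 840 bases and Hist3h2a at 1643 bases are the highest, and Hist1h4h at 46 bases is the highest of those left of the line.

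The start sites of 13 H2A and H2B pairs lie within 500 bases of each other and point apart, 1 of them with the pseudogene Hist3h2bb-ps. In the pair with the largest counts, Hist1h2ac and Hist1h2bc, the starts are 250 bases apart. Hist1h2ac had 14 counts in p27 OE libraries in all, against 9 in EV control libraries, while Hist1h2bc had 5111 counts in p27 OE libraries, against 3308 in EV control libraries. In the pair Hist1h2ad and Hist1h2bf, Hist1h2ad had 41 counts in p27 OE libraries, against 13 in EV control libraries, and Hist1h2bf had 40, against 4. Hist2h2ac had 7 counts in p27 OE libraries, against 1 in EV control libraries, beside its partner Hist2h2be with 143, against 204.

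Promoter windows of 250 bases before to 50 bases after the start were available in RefSeq (GRCm38.p6) for 62 of the 68 members and were searched on both strands. The CCAAT box, CCAAT or its complement ATTGG, occurred in 53 of the 62 (85.5%), beside 37.4% of all 32851 promoter windows, but in 3 of 12 H4 windows (25.0%). TATAAA, or its complement, occurred in 35 of 62 (56.5%), beside 13.6% of all windows. The octamer ATTTGCAT, or its complement ATGCAAAT, occurred in 14 of 62 (22.6%), beside 1.7% of all windows, in 7 of 18 H2A and 7 of 16 H2B windows and in 0 windows of the other classes. The windows of the neighbouring genes Hist1h2ab and Hist1h3b, which both rose, and the window between Hist1h2ac and Hist1h2bc are shown with these motifs in capitals, on the strand of the named gene.
Hist1h2ab, chr13:23750838-23751137 (+): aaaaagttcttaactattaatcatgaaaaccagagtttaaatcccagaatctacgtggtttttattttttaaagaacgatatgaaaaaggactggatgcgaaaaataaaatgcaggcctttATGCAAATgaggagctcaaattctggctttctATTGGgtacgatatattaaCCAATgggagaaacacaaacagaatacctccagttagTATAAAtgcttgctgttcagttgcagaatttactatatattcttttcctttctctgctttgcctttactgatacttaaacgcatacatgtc
Hist1h3b, chr13:23752095-23752394 (+): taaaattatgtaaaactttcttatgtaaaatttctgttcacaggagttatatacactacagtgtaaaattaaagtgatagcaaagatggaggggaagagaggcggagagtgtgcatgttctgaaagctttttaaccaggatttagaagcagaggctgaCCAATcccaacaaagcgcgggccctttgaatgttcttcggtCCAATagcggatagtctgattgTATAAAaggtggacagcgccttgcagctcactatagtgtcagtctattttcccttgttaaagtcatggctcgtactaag
Hist1h2ac, chr13:23683910-23684209 (−): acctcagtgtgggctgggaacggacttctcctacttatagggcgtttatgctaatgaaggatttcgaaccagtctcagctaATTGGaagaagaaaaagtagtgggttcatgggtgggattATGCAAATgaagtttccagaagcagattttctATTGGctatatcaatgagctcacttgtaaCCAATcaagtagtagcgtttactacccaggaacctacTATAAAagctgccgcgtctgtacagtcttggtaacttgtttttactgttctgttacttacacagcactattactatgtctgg
Hist1h2ab has an octamer, both orientations of CCAAT and TATAAA, and Hist1h3b has 2 CCAAT boxes and TATAAA. The window of Hist1h4h, which also rose, holds none of the 3 motifs. The match is of letters alone.

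Of the 51 members that were not tested, 26 had at least 10 counts over the 6 libraries, 15 had 1 to 9 and 10 had none. Their largest total was 60 counts and their largest count in 1 library 26. Together they had 205, 105 and 150 counts in p27 OE libraries, against 163, 79 and 123 counts in EV control libraries, and in CPM the groups overlapped. Raw counts were higher in p27 OE for 23 genes, lower for 15 and equal for 3, and relative to library size 26 were higher and 15 lower. Fitted without the filter, 58 members with counts were tested in the paired edgeR fit, and the same number, 6, rose (3.79% of 18199 genes higher, 3.99% lower), with none of the additional members passing. The smallest adjusted p among those with at least 10 counts was 0.0999, for Hist1h2bf, which had 25, 0 and 15 counts in p27 OE libraries, against 2, 2 and 0 counts in EV control libraries. Hist1h2bf passed when the libraries numbered 2 were left out (log2 fold change 4.47, edgeR paired adjusted p = 0.000388). Number 2 is the one in which it was lower in p27 OE, and only its p27 OE libraries then stood past the filter's cutoff. That call therefore gives no separate evidence of a rise. Hist1h2ad had 26, 7 and 8 counts in p27 OE libraries, against 11, 0 and 2 in EV control libraries, and Hist1h2bb had 6, 5 and 18, against 4, 2 and 2. Hist3h2ba went the other way in library 3, with 6, 0 and 1 counts in p27 OE libraries, against 2, 0 and 18 in EV control libraries.

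Near-identical copies limit what a count of 1 gene can mean. Stretches of 50 bases that also occur in another gene's transcript made up a median of 91.4% of the 10 members with 0 counts and 48.2% of those with counts. Among the genes that rose, the share was 8.5% for Hist1h1c, 16.3% for Hist1h2be, 30.6% for Hist1h2bc, 45.8% for Hist1h4h, 58.0% for Hist1h2ab and 60.4% for Hist1h3b. The counting of reads that match several places is not stated, so values of Hist1h2ab and Hist1h3b are the less certain, and a 0 for genes such as Hist1h4m or Hist2h3c1 does not show that they are silent.

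Among the factors that act on histone genes, the genes that passed the paired fit were Ccne1, Ccne2 and Ncbp2, and without pairing 0 passed. Of 13 genes of histone gene transcription, 2 rose and 0 fell, beside 3.8% higher and 3.63% lower over all tested genes, with a median log2 fold change of 0.06, beside 0. Ccne2, which encodes cyclin E2, had 5.89, 3.37 and 2.65 CPM in p27 OE libraries, against 3.78, 1.72 and 1.44 CPM in EV control libraries, higher in each number with overlapping groups (log2 fold change 0.81 ± 0.18, edgeR paired adjusted p = 0.0152). Ccne1, which encodes cyclin E1, rose by 0.24 ± 0.06 (edgeR paired adjusted p = 0.039). Npat, the coactivator, had 29.6, 27.3 and 33.3 CPM in p27 OE libraries, against 29.9, 27.8 and 29.0 CPM in EV control libraries. Both cyclin calls were lost without the libraries numbered 3, with an adjusted p of 0.0722 for Ccne2 and 0.304 for Ccne1. The Ccne1 call was also lost without those numbered 2 (edgeR paired adjusted p = 0.0584).

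Of 18 genes of 3′ end processing, 1 rose and 0 fell, with a median of −0.06. The gene that rose is Ncbp2, a subunit of the nuclear cap-binding complex, by 0.26 ± 0.07 (edgeR paired adjusted p = 0.0389, and 0.0801 and 0.302 without numbers 2 and 3). Slbp, which encodes the stem-loop binding protein, had 34.4, 24.7 and 28.2 CPM in p27 OE libraries, against 38.3, 29.6 and 27.8 CPM in EV control libraries, and did not pass (log2 fold change −0.13 ± 0.07, edgeR paired adjusted p = 0.306). Of 9 genes of histone mRNA translation and decay, 13 histone chaperones and importins and 20 DNA replication genes, 0 rose and 0 fell. Their smallest paired adjusted p was 0.0836 for Mif4gd, 0.0711 for Ipo4 and 0.263 for Fen1, and the DNA replication list had a median of 0.05.

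The genes of histone variants and of other histones outside the clusters, listed as replication-independent, mostly give polyadenylated mRNA and are not tied to S phase as the cluster genes are, although H2afx also makes a stem-loop form and Cenpa peaks late in the cycle. Of 11 tested, 0 rose and 5 fell in the paired fit, beside 3.8% higher and 3.63% lower over all tested genes, and 0 passed without pairing. Their median log2 fold change was −0.19. H1f0, the linker histone typical of non-dividing cells, had 227, 201 and 189 CPM in p27 OE libraries, against 282, 255 and 248 CPM in EV control libraries, with no overlap. It fell by 0.35 ± 0.05 on the log2 scale (SE; edgeR paired adjusted p = 0.0024), and it passed without the libraries of any 1 number. The other 4 are H2afy2, which encodes a macroH2A, H2afv and H2afz, which encode H2A.Z proteins, and Cenpa, the centromeric H3, with log2 fold changes of −0.31 ± 0.06, −0.30 ± 0.07, −0.19 ± 0.05 and −0.26 ± 0.07. Their paired adjusted p in edgeR was 0.0123, 0.0183, 0.0436 and 0.0446, and the calls of H2afv, H2afz and Cenpa were lost without numbers 2 or 3 and that of H2afy2 without number 2. The H3.3 genes H3f3a and H3f3b did not pass (edgeR paired adjusted p = 0.0717 and 0.0716). The list summed to 1380, 1220 and 1170 CPM in p27 OE libraries, against 1600, 1390 and 1370 CPM in EV control libraries, more than 10 times the sum of the cluster genes in each library.

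RNAs that lack a regular poly(A) tail were looked at for how much tailless RNA the libraries hold. Of 19 listed, 13 were in the table and 3 had enough counts to be tested, of which 0 rose and 0 fell. The RNAs in the table that were not tested, among them Terc, Scarna6 and Snord17, were each at 0.22 CPM or below in every library. Malat1 made up nearly all of the list's sum of 134 to 351 CPM per library. That sum therefore describes Malat1 rather than tailless RNA as a whole. Malat1 had 349, 233 and 251 CPM in p27 OE libraries, against 131, 172 and 191 CPM in EV control libraries, with no overlap (log2 fold change 0.75 ± 0.32, edgeR paired adjusted p = 0.354). Rmrp had 1.01, 0.965 and 1.99 CPM in p27 OE libraries, against 1.78, 2.94 and 2.10 CPM in EV control libraries (log2 fold change −0.80 ± 0.28, edgeR paired adjusted p = 0.106). Rpph1 had 0.835, 0.939 and 1.27 CPM in p27 OE libraries, against 1.59, 3.08 and 1.60 CPM in EV control libraries (log2 fold change −0.99 ± 0.28, edgeR paired adjusted p = 0.0508). Malat1 thus stood higher in p27 OE libraries and Rmrp and Rpph1 lower, and the part of tailless RNA in the histone results was not tested.

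**Figure D5:**
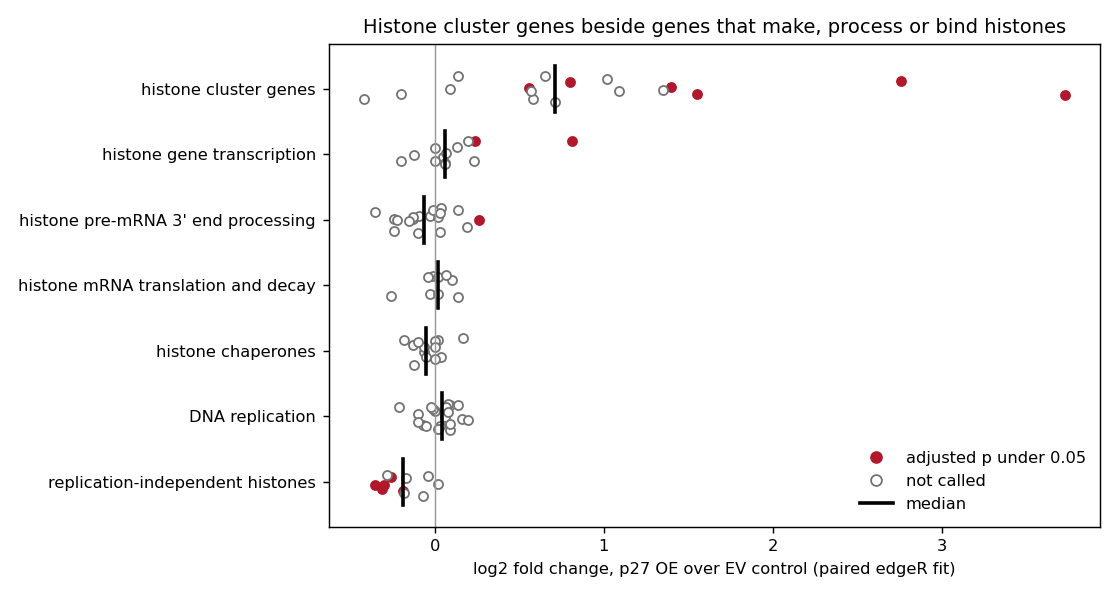
Paired log2 fold change (p27 OE over EV control) of each tested gene of the lists on histone gene transcription, mRNA processing, decay, chaperones, DNA replication and replication-independent histones beside the 17 cluster genes; filled points passed in that fit at an adjusted p of 0.05. The cluster genes have a median of 0.71 over members that passed the filter, which favoured those high in p27 OE, and of 0.57 without the filter. The replication-independent histones have a median of −0.19.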

How the data were processed

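RNA of mouse embryonic fibroblasts was sequenced after library preparation with the TruSeq RNA v2 kit, which does not mark strand, per the labels' protocols. One table was deposited, of raw counts that the authors made for 24062 gene symbols in 6 libraries. Tools named are TopHat2 2.0.14, Bowtie2 2.2.6, Subread and featureCounts 1.4.6, with mm10, per the submitters' processing notes. The gene annotation, strand setting and handling of multiply matching reads were not given in the sources used here. Total counts were 44518389, 40338748 and 38533998 in p27 OE 1, 2 and 3 and 52098220, 34920728 and 49970661 in EV control 1, 2 and 3.

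Groups and numbers came from the titles, in which only the controls are marked dataset 10. Whether equal numbers mean the same in both groups is not stated there. Genes were filtered with filterByExpr by group (minimum count 10, minimum total 15), scaled by TMM and tested with edgeR 4.0.16 in R 4.3.3 (robust quasi-likelihood F test, two-sided, Benjamini-Hochberg over 14090 genes, threshold 0.05), without a block as the main fit and with the replicate number as a block. CPM values use the scaled library sizes, and the standard error was derived from the F statistic. Deviations from the group means (log2 CPM, prior count 2) correlated at 0.772, 0.416 and 0.535 between libraries numbered 1, 2 and 3, each above 0.1, so the numbers in the titles were taken to pair the libraries. Libraries of numbers 2 and 3 also correlated across numbers, at 0.408 and 0.391, so for these the check does not tell their pairing apart.

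Alternatives were scaling by RLE or by the upper quartile, omitting the filter, keeping genes of 1 CPM in 3 libraries, DESeq2 1.42.0, limma-voom (limma 3.58.1) and leaving out each library. Their combinations with the block, and sums without Hist1h2bc and Hist1h1c, were added after seeing the data. The fits were tested on simulated data, where the paired fit recovered more of the changed genes than the unpaired fit and also made false calls. The simulated counts were given differences between replicate numbers by design. The better recovery therefore does not show that the libraries are paired. Transcripts, stem-loops and shared stretches of 50 bases came from GENCODE for GRCm38 (the same assembly as mm10), where all 68 symbols matched, and promoters from RefSeq GRCm38.p6. Genes named are all tested members, the untested members with the largest contrasts in counts, chosen after their values were seen, and for each list on histone regulation the called members or, with no call, that with the smallest p, and the called members of the fibroblast, muscle and neural lists. Npat, Slbp, H3f3a, H3f3b, Rmrp, Malat1 and the other cell type markers named were chosen after their values were seen. The members and lists were chosen with earlier results of these data known.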

Additional observations from a re-analysis of the deposited data

How the results depend on the processing

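Without pairing, edgeR called 0 genes, 1 without the count filter and 0 to 1 without any single library, and DESeq2 called 82. The replicate block gave 1047 calls, 1042 with RLE scaling, 1219 with upper-quartile scaling, 1416 without the filter, 1018 with the 1 CPM filter, 807 with DESeq2 and 829 with limma-voom, and 330 to 1741 without the libraries of 1 number (1741, 928 and 330 without numbers 1, 2 and 3). Of the histone cluster genes, edgeR without pairing called 0, also without any single library (0 to 0), and DESeq2 called 4. The block gave 6 with TMM, RLE or upper-quartile scaling, without the filter and with limma-voom. It gave 3 with the 1 CPM filter, which tests fewer members, and 3 with DESeq2, where the adjusted p of the rest of the 6 was not given by DESeq2, and 5 to 7 without the libraries of 1 number. Hist1h2bc, Hist1h1c and Hist1h4h were called in each of these block fits. The summed level of all members, 0.64 as the log2 of the ratio of means, was 0.47 without Hist1h2bc and Hist1h1c. Hist3h2a, at 0.09, turned to −0.05 without p27 OE 1 and −0.01 without EV control 2 (range −0.05 to 0.18 without any single library). Hist1h1b, at 0.14, turned to −0.18 without p27 OE 3, −0.16 without EV control 1 (range −0.18 to 0.72) and −0.12 with the block without number 2. The cause of these shifts was not tested. Low counts limit the 51 members that were not tested, of which the highest had 60 counts in 6 libraries.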

Other observations

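Low counts in the deposited table were even more often than odd. Of genes with 1 to 10 counts, 67.4%, 69.5% and 69.8% had an even count in p27 OE libraries 1, 2 and 3, and 70.2%, 71.0% and 72.5% in EV control libraries 1, 2 and 3, against 49.7% to 50.6% of genes with over 200 counts. A count of 2 was found for 762, 802 and 759 genes in p27 OE libraries and 756, 810 and 782 genes in EV control libraries, and a count of 1 for 286, 261 and 275 genes in p27 OE libraries and 230, 245 and 196 genes in EV control libraries. Units of a low count are thus not independent of each other, so counting error for the scarce histone genes is wider than their counts alone give.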
